A study of Mus musculus with 2 samples.

Results

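The 9 genes described here encode proteins that carry blood group antigens, and were measured in the fetal liver of the mouse: Gypc, Rhag, Rhd, Kel, Ermap, Icam4, Xk, Cd44 and Aqp1. They were taken by symbol, matched through the Ensembl identifier, and all 9 were found among 43346 mouse gene rows. The tissue was whole liver of B6NCrl embryos at 14.5 days of development, with 1 library from each of 2 biological replicates in 1 group, no treatment and no second group. The input was 10 ng of RNA longer than 200 nucleotides, to which spike-in RNAs were added, and the libraries held 39998450 (replicate 1) and 28848861 (replicate 2) estimated reads. The labels give each sample both as a single liver and as pooled male and female tissue. The Y-linked genes Eif2s3y and Ddx3y were at 22.1 and 11.2 TPM in replicate 1 and at 0 and 0.01 TPM in replicate 2, whereas Xist was at 0.09 and 14.02 TPM, so neither library held both kinds of transcript at comparable levels. No comparison between groups was possible, so each value is printed for both libraries or as their mean ± SD (n = 2), with no p-value. TPM, transcripts per 1000000, is a gene's length-scaled share of all transcripts in a library, which allows levels of different genes to be set side by side. The credibility intervals given below are the authors' deposited ones, at a level that is not stated, and cover counting and read assignment only. They do not always contain the TPM itself, as for Rhd in both libraries. In whole tissue, fewer cells of a type and less RNA per cell cannot be told apart.

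Blood group antigens are inherited differences in proteins or sugars on the red cell surface. The proteins that carry them have their own work there, as channels, transporters, enzymes, adhesion molecules and anchors of the membrane skeleton. Several sit in large complexes: Rh proteins lie with the anion exchanger in a complex held by ankyrin, and glycophorin C lies in a second complex with protein 4.1. Kell is joined to XK by a disulfide bond. The embryonic liver is the main site of red cell formation at this age, and most of these proteins appear while erythroid precursors mature. Cd44 and Aqp1 are also well known from other cells, Cd44 from white cells and stroma and Aqp1 from endothelium. The antigens themselves are human; the mouse genes are those of the carrier proteins.

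The 9 genes fell into a high set of 6 and a low set of 3. Rhd, Ermap, Kel, Rhag, Icam4 and Gypc had means of 131 to 473 TPM, and Xk, Cd44 and Aqp1 had means of 11.6 to 18.4 TPM. Between Gypc, the lowest of the high set, and Xk, the highest of the low set, lay a step of 7.10-fold in replicate 1 and 7.15-fold in replicate 2. All 9 reached 1 TPM in both libraries, a level reached by 49.2% of protein-coding genes and 26.2% of all mouse gene rows. The median over the 9 was 154 TPM, against 10.2 TPM over the 10567 protein-coding genes detected in both. Without globin transcripts in the total it was 237 TPM. Together the 9 held 0.153% and 0.163% of mouse TPM.

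**Figure D1:**
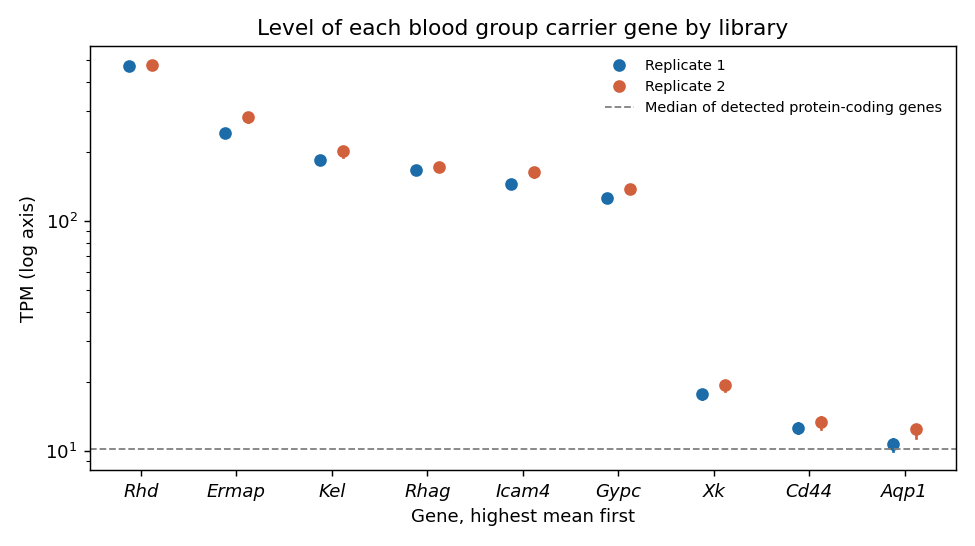
TPM on a log axis for each of the 9 genes in replicate 1 and replicate 2 (points), with the authors' deposited credibility interval (vertical lines, often hidden by the point) and the median of 10.2 TPM of detected protein-coding genes (dashed). The 6 high genes lie between 125 and 475 TPM and the 3 low ones between 10.8 and 19.3 TPM, with little spread between the livers. The intervals are not centred on the points. Rhd lies above its interval in both libraries, whose upper ends are 469.6 and 472.4 TPM, and Rhag lies above its own in replicate 2.

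The Rh pair stood at different levels. Rhd (ENSMUSG00000028825.7, chromosome 4, 134864536 to 134896172, GRCm38) encodes the Rh polypeptide, for which the mouse has a single gene. Its level was 470 TPM in the first replicate and 475 TPM in the second, with 27806 and 19522 estimated reads, a mean of 473 ± 3 TPM (SD, n = 2). It was the highest of the 9 in both livers and ranked 164th of the 10567 detected protein-coding genes. Rhag (ENSMUSG00000023926.7, chromosome 17, 40811126 to 40840754) encodes the Rh-associated glycoprotein, a channel for ammonia and gases that the Rh polypeptide needs to reach the membrane. It was at 167 and 171 TPM, a mean of 169 ± 3 TPM. Rhd was thus 2.82-fold above Rhag in replicate 1 and 2.78-fold in replicate 2. Of the other Rh family genes, Rhbg, the form of liver and kidney epithelium, was at 6.24 and 6.61 TPM, and Rhag was 26.8-fold and 25.8-fold above it. No read of Rhcg was counted in either library, which allows up to 0.0797 and 0.115 TPM at 3 reads.

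Kel and Xk, whose proteins form 1 complex, were far apart. Kel (ENSMUSG00000029866.9, chromosome 6, 41686330 to 41704339) encodes the Kell glycoprotein, a zinc peptidase that cleaves endothelin precursors. Its levels were 185 and 202 TPM, a mean of 193 ± 12 TPM. Xk (ENSMUSG00000015342.6, chromosome X, 9272756 to 9313250) encodes the membrane protein to which Kell is bound, whose loss causes McLeod syndrome in humans. It was at 17.6 and 19.3 TPM, a mean of 18.4 ± 1.2 TPM, from 3667 and 2784 reads. By the TPM of the whole gene Kel was 10.5-fold above Xk in both livers. Counting only the transcript with the most reads of each gene, Kel-201 was 5.11-fold above Xk-201 in replicate 1 and 4.92-fold in replicate 2. Both genes overlap another on the same strand, Kel with Gm37527 at 1.82 and 1.45 TPM and Xk with H2al1m at 1.48 and 1.5 TPM. Reads of overlapping genes can be uncertain. The authors' posterior SD of the estimated reads was 0 in both libraries for Kel, and 0 and 0.12 reads for Xk. Xk is X-linked, and the sex-linked transcripts differed between the libraries as given above; their part in the Xk values cannot be told apart from other differences between the 2 livers.

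Relatives of both genes were lower. Among the other 6 M13 peptidases, Ece2 and Ece1, which are endothelin-converting enzymes, were at 15.9 ± 1.6 and 13.7 ± 1.0 TPM and Mmel1 at 2.28 ± 0.12 TPM. The rest lay below 1 TPM, and Phex was listed at 0 in both libraries. Among the XK relatives, Xkr8, a lipid scramblase of dying cells, was at 2.79 ± 0.09 TPM, 6.48-fold and 6.75-fold below Xk, and Xkr5 was at 1.29 and 2.19 TPM. Xkr7 was listed at 0. Vps13a, the lipid transfer protein that binds XK, was at 1.87 and 2.11 TPM.

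Ermap was the second highest of the 9 by the TPM of the whole gene, and the fifth by its main transcript alone, Ermap-206, at 103 TPM. The gene (ENSMUSG00000028644.12, chromosome 4, 119175457 to 119190011) encodes a butyrophilin-like membrane protein that carries the Scianna antigens. Its levels were 241 and 282 TPM, higher in replicate 2, a mean of 262 ± 30 TPM. The authors' intervals for it, 231 to 244 TPM and 269 to 286 TPM, did not overlap. The same was true of Kel, Icam4, Gypc, Xk and Aqp1, while the intervals of Rhd, Rhag and Cd44 overlapped between the libraries. Of 6 other butyrophilin relatives, Btnl10 was at 7.67 and 7.27 TPM, Btn1a1, known from milk fat, at 1.18 and 1.22 TPM, and the others lay below 1 TPM. Btn2a2 and Btnl1 were listed at 0 in both.

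The adhesion and anchor genes split between the sets. Icam4 (ENSMUSG00000001014.5, chromosome 9, 21029373 to 21030595) encodes the Landsteiner-Wiener carrier, which binds integrins of neighbouring cells, macrophages of the erythroblastic island among them. It was at 145 and 163 TPM, a mean of 154 ± 13 TPM, from 4890 and 3834 estimated reads. The authors' posterior SD of these estimates was 20.2 and 15.8 reads. An antisense gene, Gm47079, overlaps Icam4 in the annotation and was not analysed here. Icam2, the endothelial and platelet form, was at 10.1 and 13.4 TPM and Icam1, the inducible form, at 5.75 and 6.83 TPM, so that Icam4 was 25.2-fold and 23.9-fold above its neighbour Icam1. Icam5, known from neurons, was at 0.23 and 0.17 TPM.

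Gypc (ENSMUSG00000090523.2, chromosome 18, 32528322 to 32560034), the glycophorin that ties the membrane to protein 4.1 and carries the Gerbich antigens, was at 125 and 138 TPM, a mean of 131 ± 9 TPM. Cd44 (ENSMUSG00000005087.13, chromosome 2, 102811141 to 102901665), the hyaluronan receptor that carries the Indian antigens, was at 12.6 and 13.3 TPM, a mean of 12.97 ± 0.47 TPM. Gypc was therefore in the high set and Cd44 in the low set, in both libraries. Of 16 ligands and partners fixed for the adhesion genes, 13 reached 1 TPM in both, led by the integrin gene Itgb1 at 60.5 and 68.9 TPM, the membrane linker gene Rdx at 51.0 and 53.0 TPM and the hyaluronan receptor gene Hmmr at 45.7 and 48.2 TPM. Of the hyaluronan synthases, Has2 was at 0.02 TPM in both, Has3 at 0 and 0.04 TPM, and Has1 was listed at 0.

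Aqp1 was the lowest of the 9 and was not the highest aquaporin. The gene (ENSMUSG00000004655.5, chromosome 6, 55336432 to 55348555) encodes the water channel that carries the Colton antigens. Its levels were 10.8 and 12.4 TPM, a mean of 11.6 ± 1.2 TPM, from 1136 and 913 reads. Aqp11, a channel of the endoplasmic reticulum, was at 15.5 and 13.6 TPM, above Aqp1 in both libraries. Aqp9, the glycerol and solute channel of hepatocytes, was at 7.04 and 7.37 TPM. The glycerol channel gene Aqp3, itself the carrier of the GIL antigen, was at 4.75 and 7.13 TPM and Aqp8 at 5.25 and 4.02 TPM. These 5 of 12 aquaporins reached 1 TPM in both, and Aqp2, Aqp6 and Aqp12 were listed at 0.

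In the order by mean TPM, Rhd was followed by Ermap, Kel, Rhag, Icam4, Gypc, Xk, Cd44 and Aqp1, and this order was the same in each library. For 8 of 8 neighbouring pairs, both values of the higher gene lay above both values of the lower one. For Rhag and Icam4 the gap was small, 167 against 163 TPM, and for Cd44 and Aqp1 it was 12.6 against 12.4 TPM. The authors' intervals of these 2 pairs overlapped within replicate 2, so that 6 of 8 pairs were apart there by that measure, and 8 of 8 in replicate 1.

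As the reads were assigned, the TPM of Kel and Ermap rested in large part on short annotated transcripts. Whether these short forms were present as separate RNAs was not tested. Kel has 5 transcripts in the files, and Kel-201, the full coding form with 19 exons and 2530 nucleotides, held 48.8% of the gene's TPM in replicate 1 and 46.9% in replicate 2. By estimated reads Kel-201 held 88.3% and 87.4%. The short Kel-202, which has no coding sequence in the annotation and lies at the 3′ end of the gene, held 27.7% and 31.9% of TPM from 6.66% and 7.90% of reads. The intron-retaining Kel-203 held 11.1% and 11.6% of TPM, and Kel-205, of 322 nucleotides, held 10.8% and 8.39%. Few reads on a short transcript make a large TPM, so the gene's TPM counts short and full forms alike. Kel-201 alone was at 90.1 and 94.7 TPM.

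Ermap showed the same with short transcripts at its 5′ end. Ermap-206, the full coding form with 13 exons and 4551 nucleotides, held 39.3% and 39.5% of TPM but 77.6% and 79.3% of reads, and stood alone at 94.7 and 111 TPM. Ermap-202, of 724 nucleotides, held 21.8% and 16.3% of TPM, and Ermap-204, of 606 nucleotides, held 10.1% and 16.0%. These were the transcripts whose shares differed most between the livers. Ermap-207, annotated as a target of nonsense-mediated decay, held 15.3% and 15.5%.

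**Figure D2:**
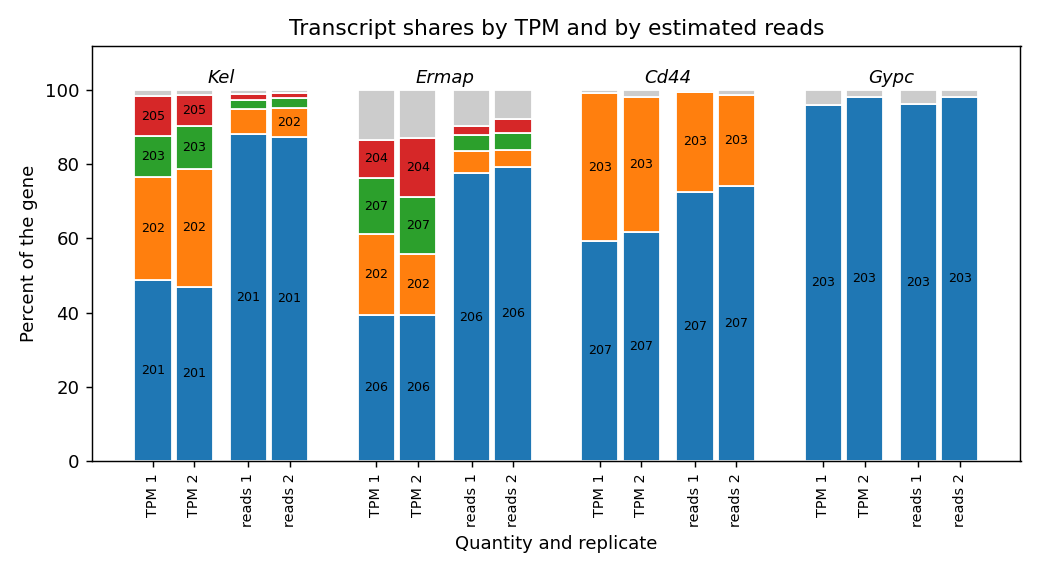
Percent of each gene held by its transcripts, by TPM and by estimated reads, in replicates 1 and 2, for 4 of the 5 genes with more than 1 transcript; coloured blocks are transcripts with at least 10% of TPM in either library (number after the gene name) and grey is the rest. Kel-201 takes 48.8% and 46.9% of Kel by TPM but 88.3% and 87.4% by reads, and Ermap-206 shows the same shift, while Gypc-203 is above 95% by either.

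Taken by the transcript with the most reads in place of the whole gene, the order changed. Rhd-201 stayed first at 472 ± 4 TPM, followed by Rhag-201 at 169 ± 3, Icam4-201 at 154 ± 13 and Gypc-203 at 128 ± 11 TPM. Ermap-206, at 103 ± 12 TPM, and Kel-201, at 92.4 ± 3.2 TPM, moved to the fifth and the sixth place. The values of these last 2 lay next to each other, with 94.67 TPM for Ermap-206 in replicate 1 and 94.66 TPM for Kel-201 in replicate 2. This ranking was chosen after the transcript shares were seen. Cd44-207, at 7.85 ± 0.51 TPM, came after Aqp1-201, whereas the whole gene had come before it. Xk-201, at 18.4 ± 1.2 TPM, was again the seventh.

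The other genes were simpler, apart from Cd44. Rhag, Icam4, Xk and Aqp1 have 1 transcript each in the files, Rhd-201 held 99.9% and 100% of Rhd, and Gypc-203 held 96.0% and 98.2% of Gypc. Cd44 has 9 transcripts, which differ in whether exons of the outer stem are spliced in. Cd44-207 held 59.4% and 61.7% of TPM, and Cd44-203, the short form with 9 exons, held 39.8% and 36.5%. Cd44-201, with 19 exons, held 0% and 0.63%, and 5 further coding forms were listed at 0 in both. Of these, Cd44-204, Cd44-205, Cd44-206 and Cd44-208 are annotated with almost no untranslated bases, as in Cd44-208 with 1971 coding bases of 1981. Reads of untranslated ends therefore count towards other forms, and a listed 0 does not show that these exon combinations were unused. Cd44-207 skips part of the variable exons and keeps 5 exons that Cd44-203 lacks. The sequences below, read from the GENCODE M21 transcripts, show where the 2 forms part. Lower case is the last 15 bases of the exon before the junction and capitals are the first 15 bases of the exon after it. The first line is the direct joint of Cd44-203 (minus strand, between chr2:102853015 and chr2:102828610), and the others are the joints at which Cd44-207 enters and leaves its extra exons.
Cd44-203 after exon 5: gcaccttggccaccaGAGATCGAGACTCAT
Cd44-207 after exon 5: gcaccttggccaccaATATAGACAGAATCA
Cd44-207 after exon 10: atggctccttaccagGAGATCGAGACTCAT
The first 2 lines leave the same exon and the first and the last enter the same exon. The tables hold no reads per junction. Of the 2197 bases of Cd44-207 that Cd44-203 lacks, 636 are coding and 1406 lie in the 3′ untranslated region, so reads of a longer 3′ end also count towards Cd44-207, and the share of the extra coding exons is not given by these tables.

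Markers of white cells and endothelium were present in both libraries beside Cd44 and Aqp1. Of 10 neutrophil and myeloid markers 10 reached 1 TPM, with a summed level of 2791 against 2002 TPM, the higher in replicate 1, and Cd44 was at 12.6 and 13.3 TPM. The sum leaned on a few genes: the means of these markers ran from 1.23 to 1093 TPM, with a median of 94.95 TPM. Of 10 endothelial markers 9 reached 1 TPM, with 94.1 and 94.7 TPM summed, and Aqp1 was at 10.8 and 12.4 TPM. The means of the endothelial markers ran from 0.435 to 39.2 TPM, with a median of 4.565 TPM. Macrophage markers summed to 304 and 310 TPM (10 of 10), megakaryocyte markers to 575 and 726 TPM (10 of 10), lymphoid markers to 12.0 and 10.2 TPM (2 of 10) and stellate and mesothelial markers to 123 and 130 TPM (7 of 10). No marker among the myeloid or endothelial ones was at 0; among the lymphoid ones Cd3e and Cd8a were. The part of each cell type in the Cd44 and Aqp1 values was not tested. Of the erythroid markers 9 of 9 measured reached 1 TPM, the lowest at a mean of 67.7 TPM. Of the hepatocyte markers 10 of 10 did, in tissue labelled as liver.

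The upstream sequences of the genes were read because 6 of them were high together in a tissue rich in erythroid cells. GATA1, the main regulator of red cell genes, binds GATA motifs, searched here as AGATAA and TGATAA on both strands in the 250 bases before each RefSeq start (GRCm38.p6). Promoters were available for 8 of the 9 genes. None was available for Gypc, a gene of the high set, so its upstream bases were not searched. A match within 100 bases of the start was found for Rhd, Ermap, Kel, Rhag and Icam4, 5 of 8, against 6.17% of 32851 promoters. These 5 are shown with the matches in capitals, written along the gene's strand and ending at the base before the start, except Icam4, of which only the match and its flanks are given.
Rhd (chr4:134864436-134864535, plus strand): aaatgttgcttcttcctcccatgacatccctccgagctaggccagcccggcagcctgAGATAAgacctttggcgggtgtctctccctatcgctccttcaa
Ermap (chr4:119189996-119190095, minus strand): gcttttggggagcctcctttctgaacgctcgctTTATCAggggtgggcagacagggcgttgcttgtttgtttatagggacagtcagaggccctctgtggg
Kel (chr6:41704326-41704425, minus strand): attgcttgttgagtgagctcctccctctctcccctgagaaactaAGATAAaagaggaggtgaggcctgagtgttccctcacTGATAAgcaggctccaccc
Rhag (chr17:40811049-40811148, plus strand): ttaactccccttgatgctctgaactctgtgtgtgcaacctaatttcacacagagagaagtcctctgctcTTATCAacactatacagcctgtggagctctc
Icam4 (chr9:21029377-21029406, plus strand): cagggtgccttcTTATCTcctgcggccagc
The matches began 43 bases before the start in Rhd, 67 in Ermap, 56 and 19 in Kel, 31 in Rhag and 43 in Icam4. Cd44 had a match 233 bases before its start, and no such letters were in the windows of Xk and Aqp1. Over the whole 250 bases the count was 6 of 8, against 16.6% of promoters. The GENCODE M21 transcript of Icam4 starts 59 bases before the RefSeq start, so its match lies inside that transcript. The form counted in these data is shorter, with 907 against 971 nucleotides, and its start was not checked. In Kel, Ermap, Rhag and Xk the GENCODE start lies 14 to 28 bases before the RefSeq start. In Aqp1 it lies 133 bases after it, so the bases just before the GENCODE start of Aqp1 were not searched. The letters CCACACCC, a site of the erythroid factor KLF1, were in none of the 8 windows on either strand and in 3.20% of promoters. The motifs and the 100 bases were chosen with the levels known; a match is not a measured binding site, and a window without one says nothing about the factor.

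**Figure D3:**
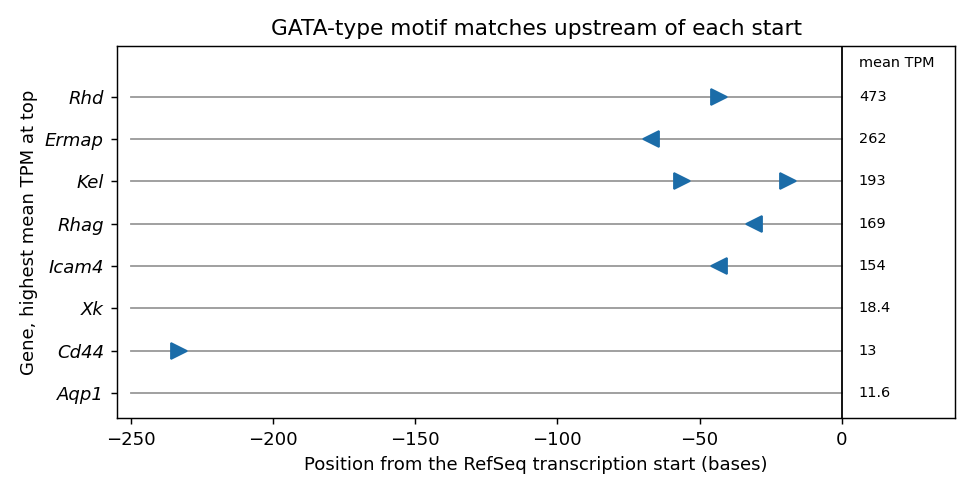
Position of each AGATAA or TGATAA match (arrowheads, pointing right for the gene's strand and left for the opposite strand) in the 250 bases before the RefSeq start, for 8 genes ordered by mean TPM, which is printed at the right. The 5 highest genes each have a match within 100 bases of the start. Cd44 has 1 at 233 bases, and Xk and Aqp1 have none in this window. Gypc, also of the high set, had no promoter to search and is not drawn.

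Of 29 other carrier proteins 26 reached 1 TPM in both libraries, with a list median of 15.7 TPM and means from 0.01 to 670 TPM. Bsg, the carrier of the Ok antigen, was at 660 and 679 TPM, and Slc4a1, the anion exchanger of the Diego antigens, at 496 and 576 TPM. Of 14 partners in the ankyrin and protein 4.1 complexes, 14 reached 1 TPM, with a list median of 102 TPM. Among them Cd47, the Rh-associated signal that restrains macrophages, was at 263 and 272 TPM. Of 10 erythroid regulators 10 reached 1 TPM, led by Klf1, Nfe2 and Lmo2 at 444 ± 27, 146 ± 6 and 126 ± 13 TPM.

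**Figure D4:**
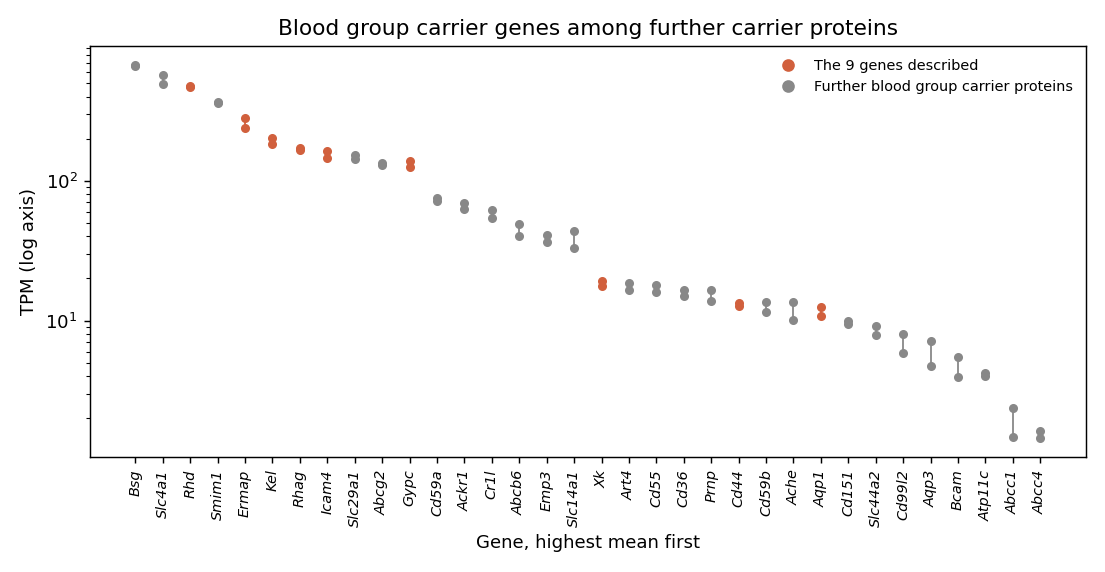
TPM on a log axis in both libraries (2 joined points per gene) for the 9 genes described (orange) and further blood group carrier proteins whose mean reached 1 TPM (grey; 1 carrier is not drawn), highest mean first. Of the 9, 6 lie in the upper part, from 131 to 473 TPM. Xk, Cd44 and Aqp1 lie between 11.6 and 18.4 TPM, near the list median of 15.7 TPM of the further carriers. Carriers from Cd59a at 73.6 TPM to Slc14a1 at 38.4 TPM lie between these sets, so the step is one among the 9 genes only.

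The difference between the livers was small for every member. On log2 of TPM plus 1, replicate 2 over replicate 1, the ratios ran from 0.01 for Rhd and 0.03 for Rhag to 0.19 for Aqp1 and 0.23 for Ermap, with a median of 0.13. None of the 9 differed by 2-fold, and only 0.18% of the 5564 genes whose mean reached 10 TPM did. At that share a count of none does not set the 9 apart. All 9 ratios lay above 0, as did 76.3% of those genes, whose own median ratio was 0.09; 6 of the 9 lay above that median. The direction depended on the scaling. With TMM scaling of the counts, which trims extreme genes before setting the factor, the median over all genes was -0.02, 44.3% of genes were above 0, and the 9 genes had a median of 0.01 with 5 above 0. Ermap, Aqp1, Icam4, Gypc and Xk were above 0 on both the TPM and the TMM scale. With counts scaled by spike-in reads all 9 were above 0, from 0.09 to 0.28, as were 90.7% of genes, whose median was 0.17. The order by size of the ratio changed too: Rhd, the nearest to 0 on TPM, went from 0.01 to -0.10, the farthest from 0 with TMM. Ermap, the farthest on TPM, was at 0.08 with TMM, and Aqp1 at 0.09. Rhag went from 0.03 to -0.09, and Kel and Cd44 also changed sign, to -0.03 and -0.02. With 1 library per liver these differences describe 2 livers only.

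**Figure D5:**
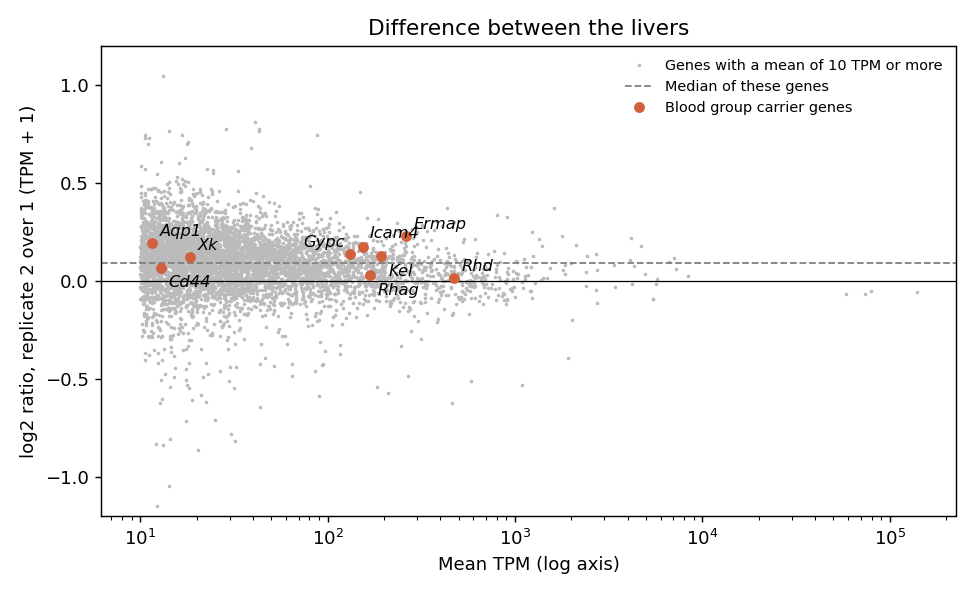
Log2 ratio of TPM plus 1, replicate 2 over replicate 1, against mean TPM (log axis) for the 5564 genes whose mean reached 10 TPM (grey), with their median of 0.09 (dashed) and the 9 genes (orange); 7 genes beyond a ratio of 1.2 either way are not drawn. The 9 genes lie between 0.01 and 0.23, inside the cloud of other genes of their level.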

How the data were processed

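Total RNA of fetal liver was sequenced in 2 libraries of 1 group, numbered as in the labels. The authors deposited gene and transcript tables on mm10 with GENCODE M4, per the files' deposited descriptions. The aligner and counter were not given in the sources used here. The authors deposited expected counts as estimated reads without normalization. TPM and FPKM, as deposited, cover the spike-ins too, which took 7.35% and 6.72% of reads. The percent of a gene's TPM per transcript, a posterior SD of counts and TPM intervals were deposited too, per the file headers. Strand use in counting is not stated.

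Symbols and positions came from GENCODE M21 and promoters from RefSeq, both GRCm38. Of 192 list symbols 190 matched. The members and lists were chosen with earlier results of these data known. Genes were named by rule: all members, the 3 highest and the absent genes of a list, and relatives at 1 TPM or more; not all are printed. Ratios used a pseudocount of 1 TPM, and a level of 1 TPM counted as detected. Genes entered the count of 2-fold differences at a mean of 10 TPM and 50 summed reads. The script behind that count was tested on simulated data. An upper limit at 0 used 3 reads; intervals and limits cover counting error only. The labels do not say that reads carry molecular identifiers. Expected counts were rounded for scaling factors from edgeR (TMM) and DESeq2, which were used for factors alone. Python 3.11.15, pandas 2.3.3, numpy 2.4.6, matplotlib 3.10.9, R 4.3.3, edgeR 4.0.16 and DESeq2 1.42.0 were used. A carrier gene of the lists is counted in them but not reported by name here.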

Additional observations from a re-analysis of the deposited data

How the results depend on the processing

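The median over the 9 genes, 154 TPM, was 237 TPM without globin genes, 171 TPM over mouse genes only and 103 TPM by the main transcript alone, an alternative added after seeing the data; with each library alone it ran from 145 to 163 TPM. By FPKM and by posterior mean TPM it moved by less than the spread between livers. Detection of all 9 held at 0.5 and 5 TPM and in each library alone. The leading transcript was the same for 9 of 9 genes by reads, by posterior mean and in each library alone. No member passed 2-fold under any scaling, pseudocount or filter tried. Of all genes, 10 passed 2-fold, but 6 did with a pseudocount of 5, with TMM or DESeq2 factors or with spike-in scaling, 89 when the minimum mean was 1 TPM, and 146 without a filter; the last 2 tested more genes.

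Log2 ratios between livers changed sign by FPKM, to -0.0400 for Rhd and -0.0216 for Rhag. With TMM factors they were -0.103 for Rhd, -0.0859 for Rhag, -0.0334 for Kel and -0.0194 for Cd44, and with DESeq2 size factors -0.100, -0.0828, -0.0303 and -0.0164; the cause was not tested. With spike-in scaling all 9 ratios stayed above 0. No paired analysis was possible because there is 1 group. The 9 genes had 913 to 27806 estimated reads per library. In replicate 2, the library with fewer reads, the authors' intervals were apart for 6 of 8 neighbouring pairs. Those of Rhag and Icam4 and of Cd44 and Aqp1 overlapped, so counting error limits the order of these pairs there. The number of livers limits all 9 genes.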

Other observations

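Genes for the enzymes that build carbohydrate blood group antigens were low or absent, in contrast to the 9 protein carriers described here. The 29 other protein carriers had a median of 15.7 TPM, with means from 0.01 to 670 TPM. Of 8 measured glycosyltransferase genes 1 reached 1 TPM in both livers, against 49.2% of protein-coding genes. It was B3galnt1, the globoside synthase gene, at 2.36 and 2.89 TPM. Fut3, also listed, matched no gene row. Gcnt2, whose enzyme makes the branched I antigen, was at 0.95 and 0.75 TPM. No read of Abo, the gene of the ABO transferase, or of Fut1, the H transferase gene, was counted in either library; 3 reads would be 0.0423 and 0.0609 TPM for Abo and 0.0289 and 0.0416 TPM for Fut1. Fut2 had 2 and 1 reads, and A4galt and B4galnt2 had 5 and 2 reads each. The 8 genes together held 3.70 and 3.85 TPM, against 1373 and 1476 TPM for the 9 protein carriers.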
